A study of Arabidopsis thaliana with 4 samples.

Results

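The chromosome 1 stretch runs in locus order from AT1G61670 to AT1G67330 of Arabidopsis thaliana. It holds 285 of the 13286 genes to which the array annotation used here gives a probe set of their own. A probe set is the group of short probes that reports 1 transcript. The stretch was chosen by its results: on the deposited scale, an earlier look at the same 4 arrays found many genes lower in the mutant there. Of 13 loci left out by name, among them genes for pentatricopeptide repeat proteins, 5 had such a probe set. Differences between the genotypes inside the stretch are therefore a description of how it was picked, and no test of the stretch is given.

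The samples were leaf primordia, the first set of young leaves, frozen 7 days after sowing from plants kept at 22 °C in continuous light. The mutant an3-4 was compared with wild type, with 2 arrays each and the ecotype Col-0 given for both. The labels name no agent, no age difference and no other allele, and do not say how the allele was made, how many plants went into a sample or whether replicates came from separate cultures. The spread between arrays may therefore be technical. The array annotation used here names no probe set for AN3, so the genotype labels were not checked on the mutated gene.

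ANGUSTIFOLIA3 (AN3), also called GIF1, is a coactivator that works with GROWTH-REGULATING FACTOR proteins to keep cells of young leaves dividing, and its mutants make narrow leaves with fewer cells. Neighbouring plant genes are mostly transcribed as separate units, although copies made by tandem duplication often lie side by side. A stretch of a chromosome therefore mixes unrelated functions, and the genes below are ordered by what they encode.

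Values are MAS5 signals, an Affymetrix summary of the brightness of a probe set, brought to 1 trimmed mean on all arrays. Median signals were 67.2 and 69.6 on the an3-4 arrays and 67.1 and 65.1 on the wild-type arrays. Log2 signals of the 13647 probe sets tested correlated at 0.989 between the an3-4 arrays, at 0.988 between the wild-type arrays and at 0.968 to 0.969 across genotypes, over probe sets that are not independent replicates. Of 20 marker genes looked for, 6 had an annotated probe set of their own. YAB3, YAB5, JAG and SPCH of young leaves and LHCB4.2 of green tissue were above the 40th percentile of all signals on every array, and CLV3 of the shoot meristem was under it on all 4. Their log2 fold changes, an3-4 over wild type, were -0.06 for YAB3, 0.11 for YAB5, -0.57 for JAG, -0.31 for SPCH and -0.39 for LHCB4.2. The signals of JAG were 46.2 and 51.8 in an3-4, against 60.8 and 86.7 in wild type, and those of LHCB4.2 were 2724 and 2230 in an3-4, against 3463 and 3004 in wild type, so neither gene overlapped between the genotypes. The part of these shifts in the lower genes of the stretch was not tested. In whole primordia, fewer cells of a type and less RNA per cell cannot be told apart.

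Of the 285 genes, 148 were bright enough to be tested and 137 were not. Among the 148, 35 were lower and 11 higher in an3-4 by the call used here, a Benjamini-Hochberg adjusted p under 0.05 in limma over all probe sets. That is 23.6% lower and 7.43% higher, where 5.30% of all 7304 named genes tested were lower and 5.91% higher. The median log2 fold change, an3-4 over wild type, was -0.04 over the 148 genes and 0.02 over all 7304. The remaining 102 genes were not called, with log2 fold changes from -0.52 to 0.59, and 97 of them lay within 0.5 of zero. On the deposited scale, where same-numbered arrays share a scale that differs between the numbers, the count was 17 lower and 3 higher, while among all named genes tested 1.55% were lower and 1.29% higher. All of these were among the 46 called at 1 trimmed mean. The 3 higher ones were BGLU46, AT1G64370 and AT1G62790, and the 17 lower ones were the 17 genes with the largest decreases as measured.

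**Figure D1:**
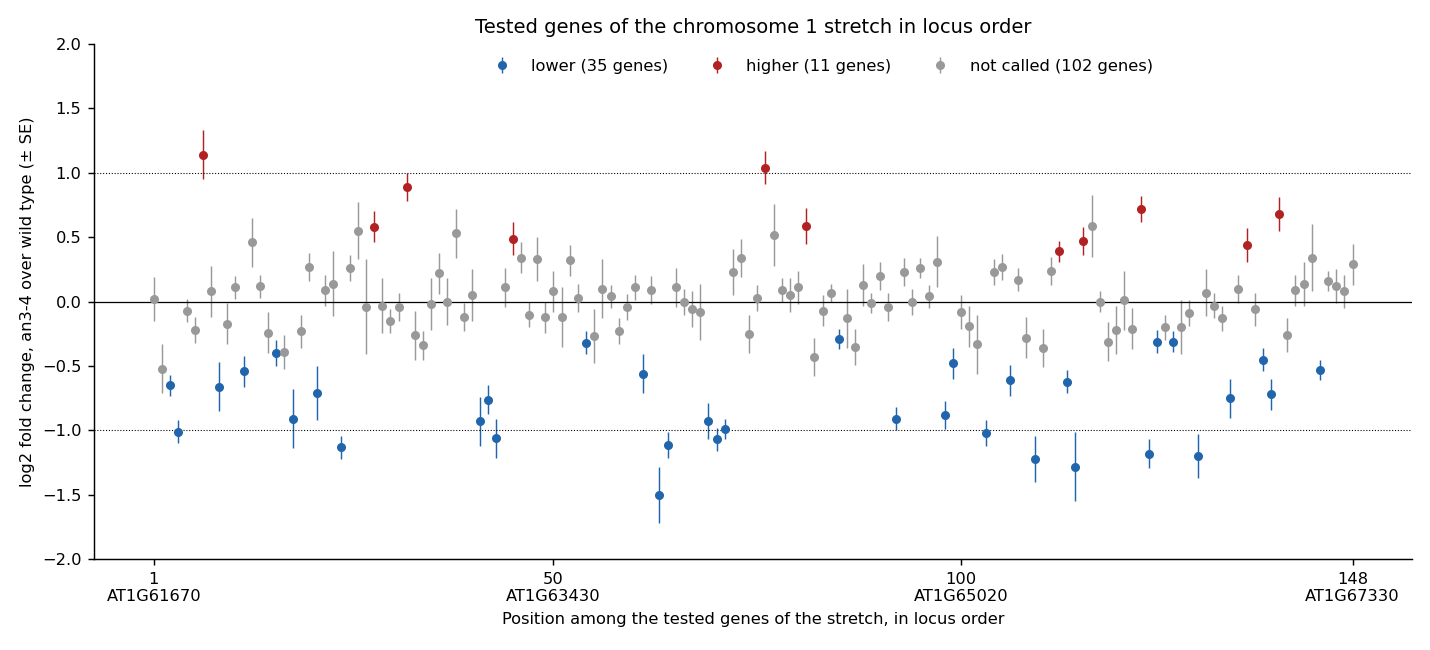
Log2 fold change of an3-4 over wild type (vertical axis, bars ± SE from limma) for the 148 tested genes in locus order (horizontal axis). The 35 lower genes, from -1.50 to -0.29 as measured, lie among 102 genes that were not called and 11 that were higher, from 0.39 to 1.14, all along the stretch.

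The called genes were grouped by what they encode after their values were seen, and no enrichment was tested. Protein turnover accounted for 8 of the lower genes and 1 of the higher genes, AT1G66180, which is described below. How many tested genes of the stretch act in protein turnover, or in any of the other groups below, was not counted. The counts by group therefore do not show which functions are lowered. UBC28 encodes a ubiquitin-conjugating enzyme, which passes ubiquitin to proteins marked for breakdown. Its signals were 938 and 1043 on the an3-4 arrays, against 2017 and 1901 on the wild-type arrays, a log2 fold change of -0.99 ± 0.08 (SE, n = 2 arrays each). AT1G63170 and AT1G63840 encode RING-type proteins, a class that includes many ubiquitin ligases. AT1G63170 had 124 and 180 in an3-4, against 326 and 300 in wild type (-1.06 ± 0.15), and AT1G63840 had a log2 fold change of -0.56 ± 0.15. AT1G66620, a gene for a SINA-like protein with RING and TRAF-like domains, had 61.6 and 48.0 in an3-4, against 115 and 136 in wild type (-1.20 ± 0.17). In each of these lower genes both mutant arrays lay below both wild-type arrays.

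Smaller decreases were found in the proteasome and in other routes of protein breakdown. AT1G67250 encodes UMP1, a factor that helps assemble the proteasome, and had a log2 fold change of -0.53 ± 0.08. RPN12a, a subunit of its regulatory particle, had -0.29 ± 0.08. ATG8C, which marks the membranes of autophagy, had -0.40 ± 0.10, and AT1G62290, a gene for a vacuolar aspartic protease, had -0.71 ± 0.21. The calls of RPN12a and ATG8C were lost whichever array was left out, with log2 fold changes from -0.33 to -0.26 and from -0.42 to -0.38. AT1G63840 lost its call without an3-4 replicate 1 or either wild-type array (-0.66 to -0.47 over the 4 fits), and AT1G62290 without an3-4 replicate 2 or wild-type replicate 1 (-1.01 to -0.40).

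Organelle gene expression was represented by 3 lower genes. PPR336 encodes a mitochondrial pentatricopeptide repeat protein, a class that binds organelle RNA. It had 191 and 172 in an3-4, against 216 and 380 in wild type, so the size of its log2 fold change of -0.66 ± 0.19 came mostly from wild-type replicate 2. AT1G61990 and AT1G62085 belong to the mTERF family, which acts on organelle transcription and lies partly in tandem here. AT1G62085 had 53.9 and 32.1 in an3-4, against 79.7 and 76.8 in wild type (-0.91 ± 0.23, 1 mutant signal under the 40th percentile), and AT1G61990 had -0.54 ± 0.12. Their relatives AT1G62010 and AT1G62150 were not called, at 0.46 and -0.23. PPR336 kept its call only without wild-type replicate 1 (-0.25 to -1.06 over the 4 fits), AT1G62085 only without an3-4 replicate 1 (-0.54 to -1.28), and AT1G61990 lost its call without an3-4 replicate 1 or wild-type replicate 2 (-0.44 to -0.65).

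Grouped under nucleus, RNA and translation were 6 lower genes. AT1G63100 encodes a GRAS-family transcription factor, the only called member of the 2 tested transcription factors looked for. It had 106 and 182 in an3-4, against 255 and 274 in wild type (-0.93 ± 0.19), and the mutant arrays differed from each other by more than the wild-type arrays did. Its log2 fold change was -0.54 without an3-4 replicate 1 and -1.31 without an3-4 replicate 2, and it kept its call in all 4 fits without 1 array. The Dof gene AT1G64620 was not called (0.13). AT1G63980, which encodes a G-patch protein, had 179 and 171 in an3-4, against 373 and 382 in wild type (-1.11 ± 0.10). AT1G65220, related to translation initiation factors, had 173 and 164 in an3-4, against 332 and 351 in wild type (-1.02 ± 0.10). In both, the mutant and wild-type signals were far apart compared with the gap between replicates. AT1G61730, from the storekeeper family of DNA-binding proteins, had -0.65 ± 0.08. AT1G65280, a DnaJ-type chaperone gene, had -0.61 ± 0.12, and its class name does not by itself place it in this group. AT1G66260, from the ALY family of RNA export factors, had -0.31 ± 0.09, and its call was lost whichever array was left out (-0.33 to -0.28).

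Metabolic enzymes made up another 6 lower genes and 1 higher gene. AT1G64190 encodes a 6-phosphogluconate dehydrogenase of the pentose phosphate pathway, which supplies reducing power and sugar phosphates. Its signals were 291 and 287 in an3-4, against 609 and 600 in wild type, a log2 fold change of -1.07 ± 0.09. The next tested gene on one side, AT1G64185, encodes a protein of the glyoxalase I family and had 72.7 and 71.2 in an3-4, against 142 and 132 in wild type (-0.93 ± 0.14). CDI, a gene named for its induction by cadmium, had 296 and 266 in an3-4, against 559 and 473 in wild type (-0.88 ± 0.11). These 3 genes were separated cleanly between the genotypes.

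The other lower genes of metabolism changed less. AT1G65820, a microsomal glutathione transferase gene, had -0.62 ± 0.09. AT1G63660, which encodes GMP synthase, had -0.32 ± 0.09, and AT1G66430, a gene for a fructokinase-like sugar kinase, had -0.31 ± 0.08. AT1G63660 kept its call only without an3-4 replicate 2 (-0.41 to -0.24 over the 4 fits) and AT1G66430 only without wild-type replicate 2 (-0.36 to -0.27). The higher gene was AT1G62660, which encodes a vacuolar invertase that splits sucrose. It had 346 and 365 in an3-4, against 268 and 210 in wild type (0.58 ± 0.12), and lost its call without wild-type replicate 2 (0.41 to 0.76). The cytosolic isocitrate dehydrogenase gene cICDH was not called, with 2182 and 2285 in an3-4, against 2340 and 2144 in wild type.

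Membrane, transport and cell wall genes were lower in 6 cases and higher in 2. CP5 encodes a START-domain protein thought to bind lipids, and had 1548 and 1499 in an3-4, against 3113 and 2624 in wild type (-0.91 ± 0.09). AT1G61740, from the TauE/SafE family of membrane transporters, had 325 and 306 in an3-4, against 653 and 614 in wild type (-1.01 ± 0.09). AT1G62480 encodes a protein related to vacuolar calcium-binding proteins and had 455 and 407 in an3-4, against 923 and 963 in wild type (-1.13 ± 0.09). In all 3 genes the mutant signals lay well below those of wild type.

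AT1G66250, a gene for a family 17 glycosyl hydrolase of the kind that cuts callose, had 215 and 203 in an3-4, against 436 and 516 in wild type (-1.18 ± 0.11). AT1G63110, which encodes a subunit of the enzyme that attaches GPI anchors to proteins, had 132 and 151 in an3-4, against 246 and 232 in wild type (-0.76 ± 0.11). AT1G66760 encodes a MATE-type efflux carrier and had 116 and 89.6 in an3-4, against 186 and 157 in wild type (-0.75 ± 0.15). AT1G66760 lost its call without wild-type replicate 1 (-0.94 to -0.56), while AT1G66250 and AT1G63110 kept theirs in all 4 such fits.

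The 2 higher genes of this kind were BGLU46 and AT1G62790. BGLU46 encodes a beta-glucosidase that acts on glucosides of lignin precursors, and had 83.9 and 76.8 in an3-4, against 36.3 and 36.5 in wild type, a log2 fold change of 1.14 ± 0.19. It had the largest increase among the tested genes of the stretch, with 1 wild-type signal under the 40th percentile of its array. AT1G62790, from the lipid-transfer protein family, had 386 and 453 in an3-4, against 209 and 243 in wild type (0.89 ± 0.11). BGLU45, the neighbouring copy of BGLU46, was too dim on all arrays to be tested.

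Among defence genes, 2 were lower and both were dim in the mutant. Both were bright enough to be tested only through their wild-type signals. Genes that pass in this way are bound to read as lower, so these calls say nothing about defence genes as a class. AT1G63880 encodes a TIR-type NBS-LRR protein, a class of intracellular immune receptors, and had 29.9 and 23.0 in an3-4, against 75.9 and 73.0 in wild type (-1.50 ± 0.22). Both mutant signals were under the 40th percentile of their arrays, so the gene was at least 1.96-fold lower in an3-4 when they are raised to it. Of 8 NBS-LRR genes with an annotated probe set of their own, AT1G63730 was the only other one tested, and it was not called (0.10). AT1G65870, from the dirigent-like family, had 25.8 and 22.3 in an3-4, against 72.5 and 46.5 in wild type (-1.28 ± 0.27), and was at least 1.53-fold lower by the same bound. AT1G65870 lost its call with the dim signals raised (-0.61) and without wild-type replicate 1 (-1.60 to -0.96 over the 4 fits).

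A cytoskeletal gene and several genes for which no role is given here were also called lower. TRM22 belongs to a family of proteins that recruit the TON1 complex to microtubules, and had 141 and 154 in an3-4, against 219 and 269 in wild type (-0.72 ± 0.12). AT1G65490 had 59.5 and 50.5 in an3-4, against 148 and 110 in wild type (-1.22 ± 0.18). AT1G65010 and AT1G66940 had -0.48 ± 0.12 and -0.45 ± 0.09, and AT1G65010 kept its call only without an3-4 replicate 1 (-0.63 to -0.33). TUA1, which encodes an alpha-tubulin, was not called (0.23). Of the listed classes, FMO GS-OX genes and regulators of hormones and immunity had 0 members with an annotated probe set of their own. The array may still hold probe sets for them that the annotation does not give to 1 gene. The 1 cytochrome P450 gene with an annotated probe set of its own, AT1G66540, was too dim to be tested.

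Among the remaining higher genes, AT1G66180 encodes an aspartic protease, grouped with protein turnover, and no role is given here for the others. AT1G66180 had 326 and 311 in an3-4, against 187 and 201 in wild type (0.72 ± 0.10). AT1G64370 had 212 and 173 in an3-4, against 93.8 and 93.1 in wild type (1.04 ± 0.13), which with BGLU46 made it 1 of 2 genes at least 2-fold higher. AT1G67050 had 189 and 224 in an3-4, against 141 and 118 in wild type (0.68 ± 0.13). In these genes both mutant arrays lay above both wild-type arrays.

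The other increases were smaller. AT1G64460 had 118 and 117 in an3-4, against 73.5 and 82.4 in wild type (0.59 ± 0.14), and AT1G63240 had 139 and 144 in an3-4, against 97.9 and 104 in wild type (0.49 ± 0.13). AT1G65900 had 309 and 328 in an3-4, against 252 and 210 in wild type (0.47 ± 0.11), and AT1G66890 had 134 and 125 in an3-4, against 89.6 and 101 in wild type (0.44 ± 0.13). AT1G65720 had a log2 fold change of 0.39 ± 0.08. The calls of AT1G63240 (0.45 to 0.53) and AT1G66890 (0.36 to 0.53) were lost whichever array was left out. AT1G64460 kept its call only without wild-type replicate 2 (0.51 to 0.68), AT1G65900 lost it without replicate 2 of either genotype (0.34 to 0.60), and AT1G65720 lost it without an3-4 replicate 2 (0.33 to 0.44).

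**Figure D2:**
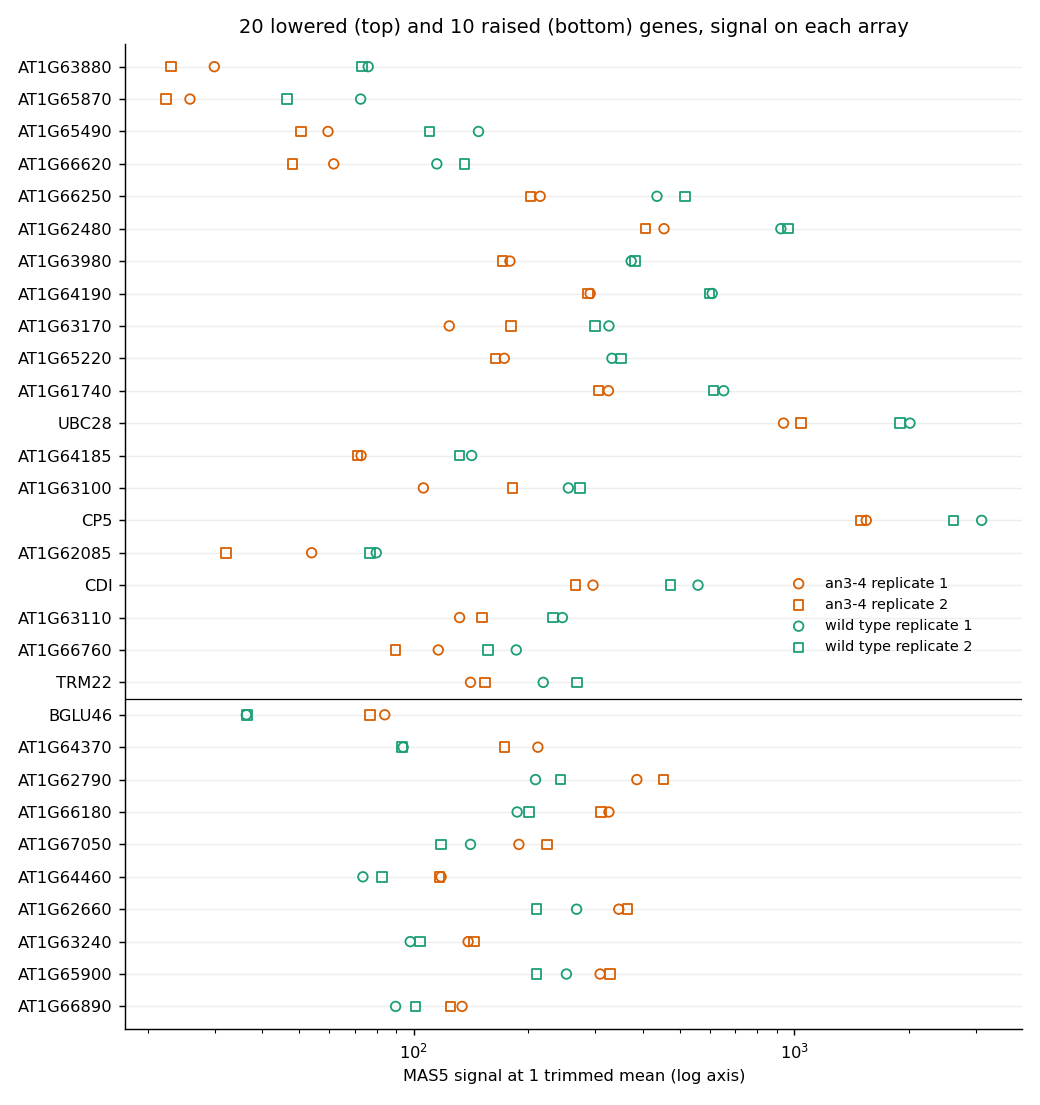
Signal on each of the 4 arrays (horizontal log axis) for the 20 genes with the largest measured decrease, above the line, and the 10 with the largest increase, below it; orange marks an3-4, green wild type, circles replicate 1 and squares replicate 2. Only called genes whose signals do not overlap between the genotypes were drawn. By that choice both an3-4 signals lie left of both wild-type signals for the top 20, and right of them for the bottom 10. An example is AT1G64190, with 291 and 287 in an3-4 against 609 and 600 in wild type.

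For all 46 called genes the signals of the 2 genotypes did not overlap, so any pairing of the arrays gives 1 direction. The same held for 50 of the 102 genes not called, and the call itself favours such genes. The share without overlap among all named genes tested is not given here, so these counts show nothing particular to the stretch. The log2 ratio from replicate 1 and that from replicate 2 differed by a median of 0.16, and by less than 0.5 in 40 of the 46. A small spread between arrays favours a call, so these gaps describe the called genes only. The widest gap, 0.97, was that of PPR336, with -0.17 in replicate 1 and -1.14 in replicate 2. Among genes not called, AT1G62520 had opposite ratios of 1.02 and -1.09; it is named because of these values.

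**Figure D3:**
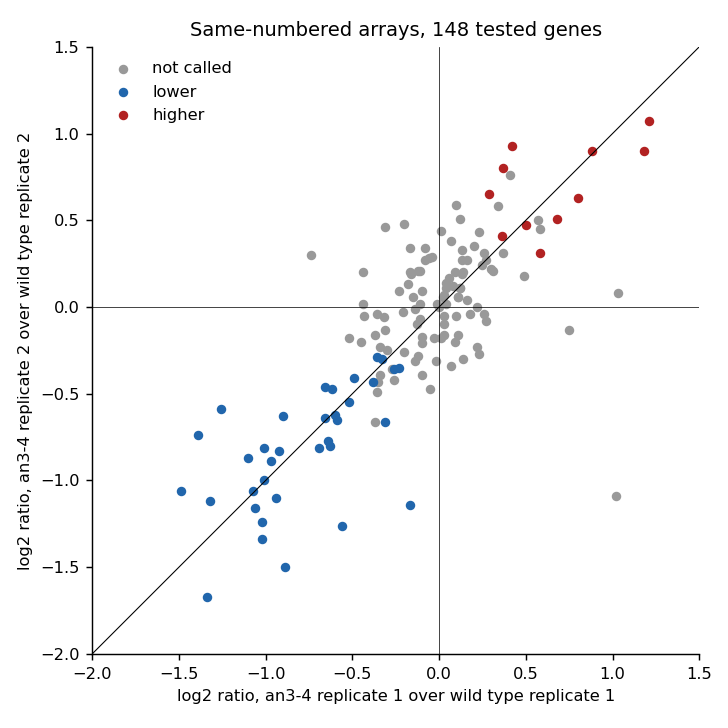
Log2 ratio of an3-4 over wild type from the replicate 2 arrays (vertical axis) against that from the replicate 1 arrays (horizontal axis) for the 148 tested genes; the diagonal marks equal ratios. All 46 called genes lie in the lower left or the upper right corner, since their signals do not overlap, and AT1G62520 is the grey point at 1.02 and -1.09.

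Genes with symbols that were not called span many functions. FRA3, a phosphatase that shapes secondary cell walls, had 0.24, and GH9C2, a cellulase of the cell wall, had 0.09. TET10, a tetraspanin gene, had 0.34 ± 0.12. SGA2, the histone chaperone ASF1A, had -0.13, and IMP4, which acts in ribosome assembly, had -0.23. ILA, linked to translation control and immunity, had -0.00, and SWEETIE, linked to sugar balance, had 0.09.

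The 137 dim genes cannot be read for size. In 122 of them no signal reached the 40th percentile of its array. CHX16 and BLT are named because of their values: each lay above the percentile in 1 genotype and under it in the other. The folds given for them are lower bounds on the measured ratio and were not tested. CHX16, a cation/H+ exchanger gene, had 52.2 and 46.8 in an3-4, against 9.53 and 14.3 in wild type, and with the wild-type signals raised to the percentile it was at least 1.35-fold higher in an3-4. BLT, BRANCHLESS TRICHOME, had 20.6 and 23.3 in an3-4, against 39.1 and 47.7 in wild type, and was at least 1.14-fold lower by the same step. WRKY6, the meiotic gene SPO11-2 and BAN, an enzyme gene of seed-coat pigments, were under the percentile on all 4 arrays.

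Along the stretch the lower genes were spread over its whole length. Divided as in the choice of the stretch, AT1G61670 to AT1G63420 held 11 lower and 4 higher of 49 tested genes, AT1G63430 to AT1G65010 held 11 and 2 of 50, and AT1G65020 to AT1G67330 held 13 and 5 of 49. Tested genes next to each other in locus order were both lower 10 times, 1 lower and 1 higher 4 times, and never both higher. The lower genes formed 2 runs of 3, AT1G63100 to AT1G63170 and AT1G64185 to AT1G64230, and 6 runs of 2. Both runs of 3 join unrelated products: a GRAS protein, a GPI-anchoring subunit and a RING protein in one, and a glyoxalase-like protein, 6-phosphogluconate dehydrogenase and UBC28 in the other. The longest runs of genes not called were 8 long, from AT1G62810 to AT1G63080 and from AT1G63260 to AT1G63640.

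The ends are where the choice put them. Next inside the start, AT1G61670 had 0.02, AT1G61690 had -0.52 and AT1G61730 had -0.65, and next outside it, AT1G61667 had 0.77, AT1G61660 had 0.11 and AT1G61640 had -0.26. Next inside the end, AT1G67330 had 0.29, AT1G67310 had 0.08 and AT1G67300 had 0.12, and next outside it, AT1G67340 had -0.24, AT1G67350 had -0.09 and AT1G67360 had -0.46. Of these genes at the ends, AT1G61730 inside and AT1G67360 outside were called lower, and AT1G61667 outside was called higher. The others were not called. The 50 tested genes before the stretch held 6 lower and 4 higher, and the 50 after it held 4 lower and 2 higher.

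On the rest of chromosome 1, 6.68% of 1736 tested genes were lower and 6.05% higher. In 35 consecutive groups of 36 to 50 tested genes there, the number of lower genes was 0 at the least, 3 at the median and 8 at the most. The number of higher genes was 0 at the least, 3 at the median and 6 at the most, and the 3 groups of the stretch held 4, 2 and 5. Chromosomes 3 and 4 have shorter stretches that were picked in the same way. The one from AT3G44100 to AT3G47000 held 10 lower and 6 higher among 50 tested genes, and the one from AT4G01897 to AT4G03340 held 8 lower and 1 higher among 50. Because all 3 were picked for their lower genes, these shares were not tested against each other.

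**Figure D4:**
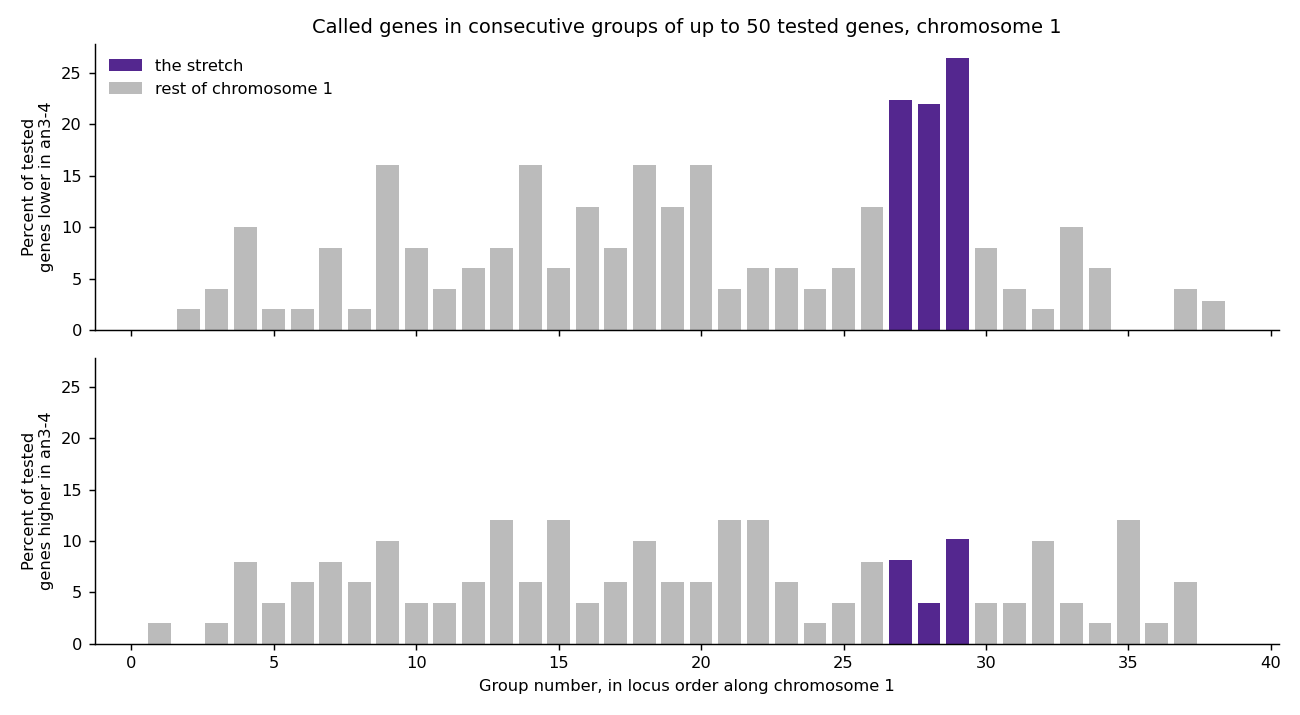
Percent of tested genes lower (upper panel) and higher (lower panel) in an3-4 in consecutive groups of up to 50 tested genes along chromosome 1, with the stretch in purple and the rest in grey. The 3 groups of the stretch have 22.4%, 22.0% and 26.5% lower genes, as picked, and the highest value elsewhere is 16.0%; their shares of higher genes, 8.16%, 4.00% and 10.2%, lie within the range of the other groups.

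Sizes of the decreases were set side by side with an3-4 signals raised to the 40th percentile of their array where both lay under it, which holds for 2 of the 35 lower genes and 15 of the 352 lower genes elsewhere in the genome. On that footing 9 of the 35 and 49 of the 352 were at least 2-fold lower, against 11 and 59 as measured. With the signals raised, the median log2 fold change was -0.75 in the stretch and -0.59 elsewhere. In the stretch 15 genes (42.9%) lay between -1.2 and -0.8, 1 was below that, 12 lay between -0.8 and -0.5 and 7 above -0.5. Elsewhere 62 (17.6%) lay in that interval and 34 (9.66%) below it. The interval and this use of raised signals were chosen after the values were seen, and the difference was not tested. The stretch was picked for genes found lower on the deposited scale, where the 17 called had its largest decreases as measured. The sizes in the stretch are therefore tied to how it was picked. The 15 genes include UBC28 of protein turnover, AT1G62085 of organelle gene expression, AT1G63980, AT1G64190 of metabolism, CP5 and, by its bound, the defence gene AT1G63880.

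**Figure D5:**
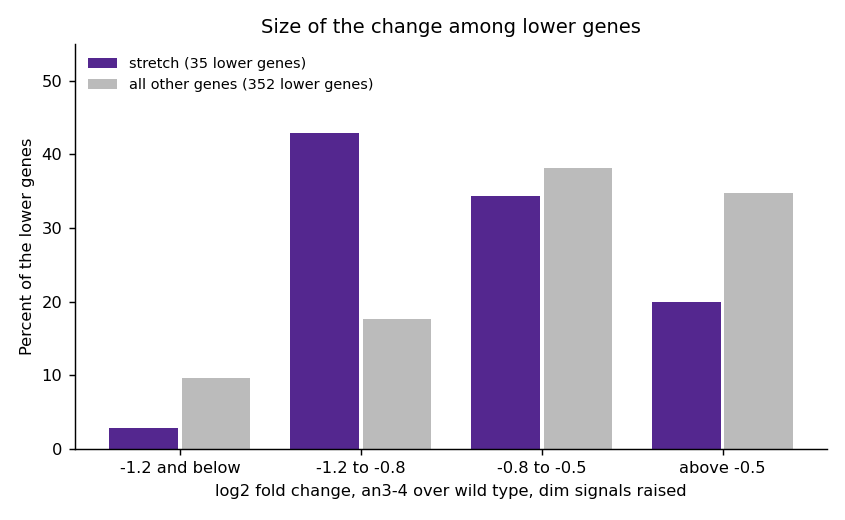
Share of lower genes (vertical axis, percent) by size of the log2 fold change of an3-4 over wild type with dim signals raised (horizontal axis) for the 35 lower genes of the stretch, purple, and the 352 lower genes elsewhere, grey. The interval from -1.2 to -0.8 holds 42.9% of the purple set and 17.6% of the grey set. The stretch was picked for its lower genes, and the difference was not tested.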

How the data were processed

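Total RNA from 4 samples was hybridised to Affymetrix arrays of 22810 probe sets. The deposited values are signal intensities made by the authors with MAS5, per the submitters' processing notes; the MAS5 version and scaling target are not given in the sources used here. Deposited trimmed means were 143 for both replicate 1 arrays and 169 for both replicate 2 arrays. Each array was therefore brought to 1 trimmed mean (155) and taken to log2. The dimmest 40% of probe sets by mean were left out, which left 13647. Genotype was fitted with limma 3.58.1 in R 4.3.3 (lmFit, eBayes with a mean-variance trend) and p-values were Benjamini-Hochberg adjusted over all of them at 0.05. The prior had 11.1 degrees of freedom beside 2 residual ones. The procedure was tested on simulated data. With 2 arrays each, an exact permutation test cannot go below 0.333, and array number limits the precision.

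Gene names of probe sets came from the platform's annotation, which gave 13513 of them 1 gene. It gave 503 of them several genes, and 8730 outside the controls no gene. A gene counted here as without a probe set may therefore still be on the array. Symbols and gene order came from RefSeq on TAIR10.1. The members and gene lists were chosen with earlier results of these data known. All called genes are named with their change, and signals are given for the 20 lower and 10 higher genes with the largest measured change. Alternatives were the deposited scale, quantile and median scaling, other filters, an offset, a replicate block and leaving out each array.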

Additional observations from a re-analysis of the deposited data

How the results depend on the processing

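On the deposited scale 17 genes of the stretch were lower and 3 higher, against 35 and 11 at 1 trimmed mean, and with no test, asking that every an3-4 array be at least 2-fold from every wild-type array, 5 were lower and 1 higher. Leaving out each array in turn gave 24 to 28 lower and 7 to 9 higher genes, and 22 of the 35 lower and 5 of the 11 higher genes kept their call in all 4 fits. With a replicate block 36 were lower and 16 higher. Same-numbered arrays shared a deposited scale, and a replicate block takes up such a shared scale. The deposited scale with a replicate block, a setting chosen after seeing the data, therefore had to give the same counts. At 1 trimmed mean, deviations of same-numbered arrays from their group means correlated at 0.0353, so gene by gene the numbers gave little sign of pairing. This does not settle whether same-numbered samples were handled together. Quantile scaling gave 37 lower and 11 higher, median centring 37 and 10, no filter 27 and 11, a filter of 60% 27 and 9, and an offset of 32 gave 35 and 11. Over the whole array, 789 probe sets were lower and 896 higher at 1 trimmed mean, and 974 and 726 with median centring. With no filter 10 of the 46 called genes lost their call: AT1G66890, AT1G63240, PPR336, AT1G62085, AT1G62290, AT1G63660, AT1G63840, RPN12a, AT1G66260 and AT1G66430. The 11 higher genes of that fit thus include 9 of the first 11. AT1G66890 also lost its call under quantile scaling and under median centring. No called gene changed direction under these settings, but most of them could not have shown a change. The filters, the replicate block and the deposited scale leave the log2 fold change as it is. An offset or a left-out array cannot reverse it where the signals do not overlap. The dimness of 137 genes limits what can be read in the stretch.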
